A study of Bos taurus with 20 samples.

Results

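Expression of 9 genes that mark fat cells or encode proteins they secrete was followed across the longissimus muscle of 20 cattle: FABP4, PCK1, GPD1, AQP7, TRARG1, CAV1, LEP, CFD and RBP4. The genes were measured by all 13 probe sets that the platform annotation gives to exactly 1 of these 9 symbols, out of 24016 probe sets without the array controls. FABP4, TRARG1, CAV1 and LEP had 2 probe sets each. Of the 13, 9 probe sets of 8 genes passed a filter that left out the 40% of probe sets with the lowest mean. The 4 under it were both LEP probe sets and the dimmer ones of FABP4 and TRARG1. Where a gene has 2 probe sets, the one with the higher mean intensity stands for the gene, and the other is called the second.

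All animals were Holstein x Charolais F2 bulls, a cross of a dairy and a beef breed. Intramuscular fat (IMF), the fat held inside the muscle, was high in 10 animals and low in 10, and each animal had an array of its own. The animal number in the title carries an S for 5 high IMF and 5 low IMF animals, called S here, and has none for 5 and 5 others, called no S. The meaning of the S is not stated in the labels, which give no treatment and no age either.

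Fat cells in muscle lie between the fibres and store triglyceride, which they build from fatty acids and glycerol 3-phosphate. FABP4 carries fatty acids inside the cell. PCK1 and GPD1 lead towards glycerol 3-phosphate, AQP7 lets glycerol out, CAV1 shapes caveolae of the cell membrane, and TRARG1 sits on vesicles of the glucose transporter SLC2A4 in mouse fat cells. LEP is the hormone leptin, CFD is the complement protease also called adipsin, and RBP4 carries retinol in blood. Several of them are not made by fat cells alone: liver makes PCK1 and RBP4, muscle fibres hold GPD1, and endothelial cells hold CAV1.

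The 2 title series differed widely: limma called 68.3% of the 14409 tested probe sets between S and no S animals, 33.4% higher and 34.8% lower in S. Of the array's own controls, the 4 for hybridisation were at 0.566-fold (BioB) to 0.786-fold (CreX) in S relative to no S arrays. The poly-A control lys was at 1.97-fold and dap at 0.971-fold, with overlapping values for dap. A set of 4 arrays stood apart by a strong signal for albumin (ALB), a plasma protein of liver: high IMF replicates 6, 8 and 10, all S, and low IMF replicate 3, a no S animal. Their ALB intensity ran between 4871 and 83307, against 245 to 469 on the other 16 arrays. Summed over the 19 liver genes on the platform, 10 of them tested, intensity ran between 7751 and 125833, against 1476 to 2728. High IMF replicates 6 and 9 had the lowest median signals, 51.6 and 56.7, where the highest was 67.7. The summed intensity of 11 muscle fibre genes ran between 149809 and 166983 in high IMF and between 157851 and 173155 in low IMF animals, ranges that overlap.

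FABP4 was the member with the widest range among those past the filter, and it was higher on average in high IMF muscle. Its intensity in S animals was 7902, 6075, 2669, 1703 and 679 with high IMF, against 4076, 1030, 887, 375 and 107 with low IMF. In no S animals it was 2086, 764, 756, 523 and 487 with high IMF, against 1081, 481, 338, 248 and 72.0 with low IMF. The groups overlapped in both series, but the low IMF median was exceeded by all 10 high IMF values. In a bulk sample such as this muscle, more fat cells and more RNA per fat cell cannot be told apart.

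On the log2(intensity + 1) scale FABP4 averaged 10.52 ± 1.45 in high IMF and 8.87 ± 1.71 in low IMF muscle (SD, n = 10 each). The difference was 1.65 (SE 0.65) and did not pass the test, with a limma adjusted p of 0.99974. No probe set passed in this comparison (0% of 14409), while 239 had an unadjusted p under 0.05, among them FABP4 at 0.0188 as the 58th smallest. A model that also held title series gave an equal difference with an SE of 0.58 and a limma adjusted p of 0.676. The second FABP4 probe set gave a difference of 1.58 (SE 0.73), and across the 20 animals it followed the first with a Pearson r of 0.96.

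**Figure D1:**
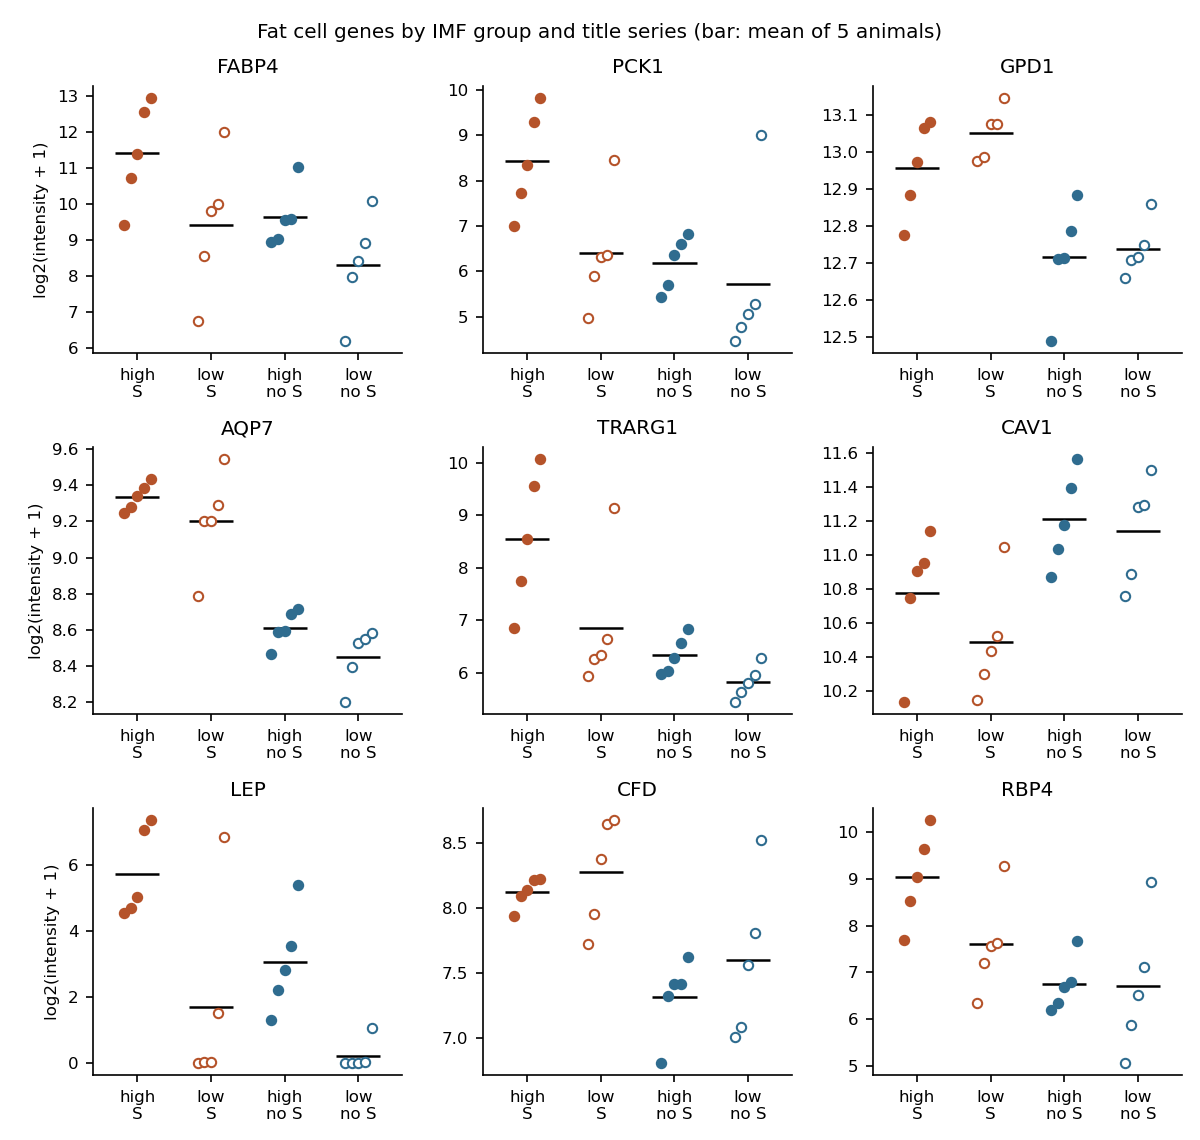
Each panel plots log2(intensity + 1) of 1 gene for 20 animals, in the order high IMF S, low IMF S, high IMF no S and low IMF no S, with filled points for high IMF, open points for low IMF and a bar at the mean of 5 animals. FABP4, PCK1, TRARG1, LEP and RBP4 reach their highest values in S animals with high IMF, and LEP lies near 0 in most low IMF animals, while AQP7, GPD1, CFD and CAV1 separate more by title series.

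LEP had the largest difference between high and low IMF of the 9 genes, from a dim probe set. Its intensity in S animals was 164, 132, 32.0, 24.9 and 22.5 with high IMF, against 115, 1.88, 0.01, 0.01 and 0 with low IMF. The no S series had 40.9, 10.6, 6.12, 3.61 and 1.44 with high IMF, against 1.08, 0.01, 0, 0 and 0 with low IMF. All 10 high IMF animals had a signal above 1, and 7 of the 10 low IMF animals were listed at 0 or 0.01.

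Among no S animals the high and low IMF values of LEP did not overlap, which held for 0.608% of all 24016 probe sets, 0.416% in that direction. Among S animals low IMF replicate 6 stood with the high IMF animals. The fitted difference was 3.45 (SE 0.86), or 1.11 when 16 in place of 1 was added before the log, so its size depends on how values near 0 are treated. Its unadjusted p was 0.000673 and its limma adjusted p, over all probe sets without the filter, was 0.99979. The second LEP probe set lay between 2.09 and 25.6 in all animals and showed no such gap.

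The other members differed less between the IMF groups. Of the 9 genes 7 had a positive difference, and the median over the 9 was 0.73, where the median of all tested probe sets was -0.03. PCK1 followed at 1.24 (SE 0.62). TRARG1 averaged 7.45 ± 1.47 in high IMF and 6.35 ± 1.04 in low IMF muscle on the log2 scale (SD, n = 10 each), and RBP4 had a difference of 0.73 (SE 0.56). CAV1 at 0.18 (SE 0.18), AQP7 at 0.15 (SE 0.18), GPD1 at -0.06 (SE 0.09) and CFD at -0.22 (SE 0.23) had differences no larger than about their SE. None of them passed limma's test.

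PCK1, the cytosolic phosphoenolpyruvate carboxykinase, had an intensity of 900, 624, 322, 209 and 127 in high IMF S animals, against 351, 81.6, 78.6, 58.8 and 30.2 in low IMF S animals. Among no S animals the intensity was 113, 95.6, 80.8, 50.8 and 42.1 with high IMF, against 514, 38.0, 32.5, 26.5 and 21.1 with low IMF. All 5 high IMF values in the no S series lay above 4 of the 5 low IMF values, and the exception was low IMF replicate 3, the animal with the highest albumin signal. The difference in PCK1 among no S animals was 0.46 with that animal and 1.28 without it, when the means were 6.18 in high IMF and 4.90 in low IMF.

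TRARG1, the regulator of glucose transporter vesicles, had an intensity of 1070, 751, 371, 215 and 115 in high IMF S animals, against 563, 99.0, 79.8, 75.6 and 60.4 in low IMF S animals. The no S animals had 113, 94.0, 77.4, 64.6 and 62.2 with high IMF, against 76.9, 61.6, 54.7, 48.9 and 42.7 with low IMF. Low IMF replicate 6 was the 1 low IMF animal of the S series among the high values. The second TRARG1 probe set, dim at 10.4 to 39.4, gave a difference of -0.05 (SE 0.20) and followed the first with an r of only 0.37.

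RBP4, the retinol carrier, had an intensity of 1218, 798, 526, 367 and 204 in high IMF S animals, against 613, 196, 188, 147 and 80.8 in low IMF S animals. In the no S series it was 202, 111, 102, 80.8 and 72.2 with high IMF, against 485, 139, 90.6, 57.9 and 32.6 with low IMF. The high RBP4 value of the low IMF no S animals was again that of replicate 3, and without this animal the difference among no S animals was 0.59 in place of 0.04. The part of liver transcripts in these values was not tested. The mean log2 level of the 10 tested liver genes had an r of 0.63 with RBP4 and 0.71 with PCK1 over 20 animals. Its r with FABP4 was 0.29. In S animals it was 0.71 with RBP4, 0.71 with PCK1, 0.69 with TRARG1, 0.64 with CAV1, 0.62 with FABP4 and 0.54 with LEP. In no S animals these values were 0.69, 0.79, -0.29, 0.12, -0.21 and -0.35. AQP7, GPD1 and CFD had 0.33, 0.11 and -0.05 in S and 0.16, -0.07 and 0.78 in no S animals.

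Without the 4 arrays with a strong albumin signal, and with title series in the model, the difference between high and low IMF was 2.92 for LEP, 1.15 for PCK1, 1.07 for FABP4, 0.56 for RBP4 and 0.48 for TRARG1. TRARG1, FABP4 and LEP thus had smaller differences by over 0.5 log2 units than with all arrays, and 3 of the 4 arrays left out were the high IMF S animals with the highest FABP4. The difference between the IMF groups was nominally larger in S than in no S animals for FABP4 (1.99 and 1.32), PCK1 (2.03 and 0.46), TRARG1 (1.69 and 0.51), RBP4 (1.43 and 0.04) and LEP (4.06 and 2.84). The test of that change itself passed for 0% of tested probe sets. Its limma adjusted p was 0.866 for PCK1, TRARG1 and RBP4 and 0.932 for FABP4. Without the 4 arrays the change had the opposite sign for these 4 genes. High IMF replicates 7 and 9 were then the only high IMF animals of the S series.

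**Figure D2:**
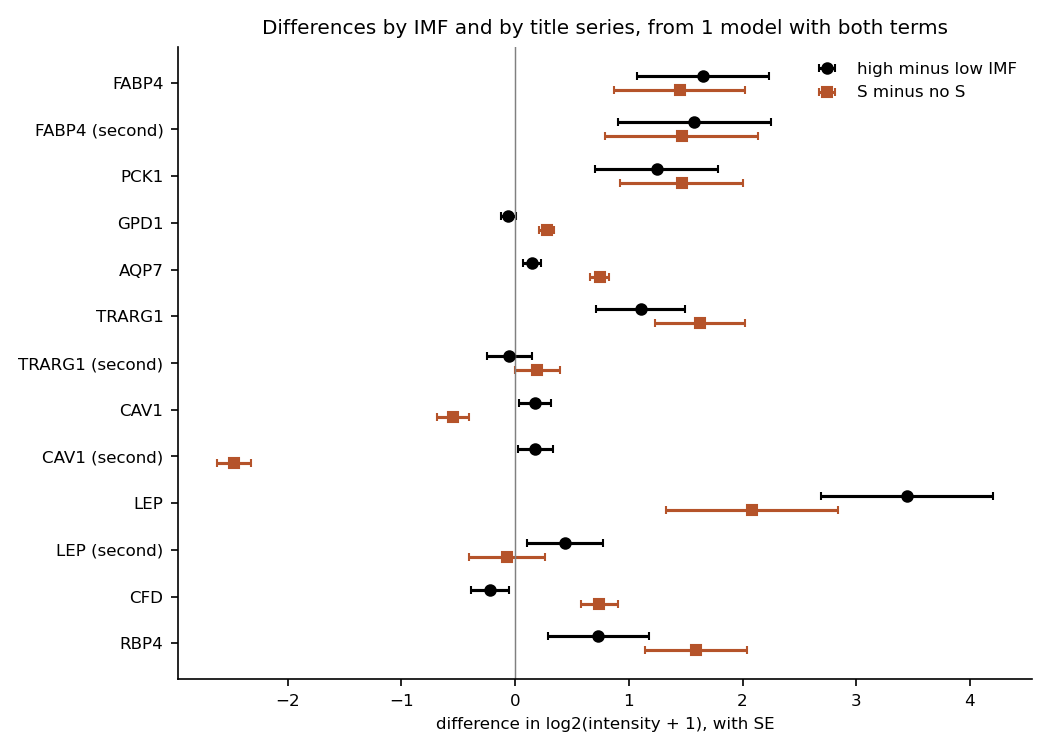
Points show the high minus low IMF difference (black) and the S minus no S difference (brown) in log2(intensity + 1) for the 13 probe sets, with SE bars, from 1 limma model with both terms over 20 animals. LEP at 3.45 and FABP4 at 1.65 lie farthest right for IMF, and the second CAV1 probe set at -2.47 lies farthest left for title series.

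Between the title series all 8 genes with a probe set past the filter were called, 7 higher and 1 lower in S animals, where 68.3% of all tested probe sets were called. A call there is close to the rule on this array, and what the S stands for cannot be told apart from how the arrays were made. The sizes still set the members apart. TRARG1 at 1.62 (SE 0.40), RBP4 at 1.59 (SE 0.45), PCK1 at 1.46 (SE 0.54) and FABP4 at 1.45 (SE 0.58) were higher in S by more than 1 log2 unit. FABP4 passed narrowly, with a limma adjusted p of 0.0315. It did not pass without the 4 albumin arrays (0.86, limma adjusted p 0.264), without the filter on dim probe sets (limma adjusted p 0.0502), or without any 1 of high IMF replicates 2, 3, 6 and 10 and low IMF replicates 5 and 6 (limma adjusted p 0.0530 to 0.0661). The second FABP4 probe set had a difference of similar size, 1.46 (limma adjusted p 0.0748), and was not called.

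LEP, fitted without the filter, was higher by 2.08 (SE 0.76, limma adjusted p 0.0267) in S animals, where 52.3% of 24016 probe sets were called. It did not pass without the 4 albumin arrays (1.55, limma adjusted p 0.180), without high IMF replicate 3 (0.0523) or 10 (0.0513), or without the 2 arrays with the lowest median signal (0.0545).

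AQP7, the glycerol channel, was the member past the filter whose brightest probe set separated the series fully. Its intensity was 690, 668, 647, 621 and 607 in high IMF S animals and 746, 625, 587, 587 and 441 in low IMF S animals. For no S animals it was 419, 411, 385, 383 and 352 with high IMF and 382, 374, 367, 335 and 293 with low IMF. The lowest S animal, low IMF replicate 10, lay just above the highest no S animal, and 19.6% of tested probe sets had such a gap, 10.4% in this direction. AQP7 was higher by 0.74 (SE 0.08, limma adjusted p 9.70e-08) in S animals, and within a series its SD was 0.20 in S and 0.15 in no S animals.

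GPD1, the cytosolic glycerol-3-phosphate dehydrogenase, was the steadiest member. It ran between 7010 and 9056 in S and between 5745 and 7547 in no S animals, with medians of 8341 and 6716. Its SD over the 20 animals was 0.18 log2 units, larger than that of only 6.0% of tested probe sets, where FABP4 had an SD of 1.76. GPD1 was also among the brightest probe sets, at percentile 99.3 of mean log2 level, and the part of brightness in its small SD was not tested. It was higher by 0.28 (SE 0.06, limma adjusted p 5.79e-04) in S animals.

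CFD ran between 210 and 408 in S animals, median 288, and between 111 and 368 in no S animals, median 170. It was higher by 0.74 (SE 0.17, limma adjusted p 5.41e-04) in S animals, and its highest no S value was once more that of low IMF replicate 3. The level of 5 macrophage genes moved with it: CFD followed their mean log2 level with an r of 0.89 over all animals, 0.68 in S and 0.81 in no S animals, given as a description. With the macrophage genes under the filter added, 9 in all, the summed intensity ran between 801 and 1220 in S animals. In no S animals it ran between 378 and 1007. In no S animals CFD also had an r of 0.94 with the mean level of 15 tested partners of the members and 0.78 with that of the 10 tested liver genes. In S animals these values were 0.08 and -0.05. The part of macrophages or of these other lists in CFD was not tested.

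CAV1, the main coat protein of caveolae, was the member that was lower in S animals, and its 2 probe sets differed in how much. The brightest had an intensity of 2254, 1980, 1914, 1716 and 1122 in high IMF S animals and 2114, 1466, 1382, 1259 and 1129 in low IMF S animals. In no S animals it had 3026, 2694, 2316, 2100 and 1873 with high IMF and 2895, 2505, 2487, 1892 and 1728 with low IMF. S and no S animals overlapped here, and the fall was 0.685-fold (log2 -0.54, SE 0.14, limma adjusted p 0.00169).

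The second CAV1 probe set lay between 18.5 and 41.5 in S animals and between 123 and 224 in no S animals. Its S and no S values did not overlap, as for 9.27% of tested probe sets in this direction, and it stood at 0.180-fold (log2 -2.47, SE 0.15, limma adjusted p 6.70e-11). Both probe sets are annotated to the same gene and followed each other within a series, with an r of 0.78 in S and 0.80 in no S animals. The size of the difference between series therefore depends on the probe set. Of 9 tested genes of endothelial cells, which also hold CAV1, 5 were called higher in S, where 33.4% of all tested probe sets were, and the other 4 had negative differences that were not called.

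**Figure D3:**
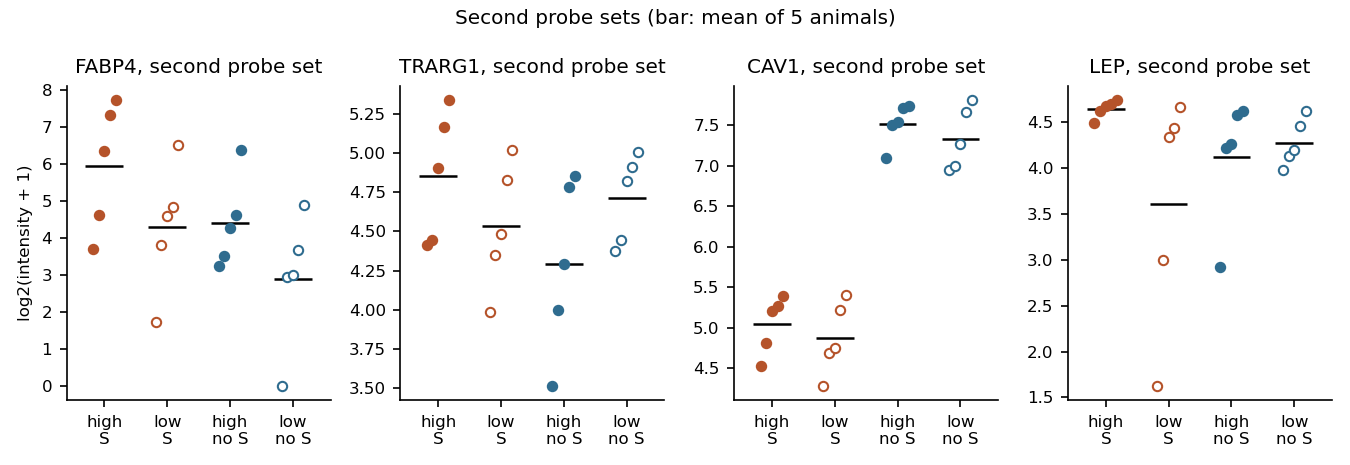
Each panel plots log2(intensity + 1) of the second probe set of FABP4, TRARG1, CAV1 and LEP for 20 animals, with groups, points and bars as in the panels of the 9 genes. The second CAV1 probe set splits S from no S animals with no overlap, while the second TRARG1 and LEP probe sets show neither split.

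Across the 20 animals the members fell into those that followed FABP4 and those that did not. The slope of each probe set on the log2 level of FABP4 was fitted by limma over all 20 animals, and 1.72% of 14408 tested probe sets were called, 1.3% with a positive and 0.423% with a negative slope. Of the 7 other genes past the filter 3 were called, all positive: TRARG1, RBP4 and PCK1. LEP, fitted without the filter, was called as well, where 0.787% of 24014 probe sets were. CAV1, AQP7, CFD and GPD1 were not called. With IMF group and title series in the model TRARG1 and RBP4 were called, where 1.33% of tested probe sets were (1.04% positive). In S animals alone TRARG1, RBP4 and PCK1 were called (0.298% of tested probe sets), in no S animals alone no member was (0.0139%), and without the 2 animals farthest from the FABP4 median TRARG1 and RBP4 were (0.208%).

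TRARG1 rose by 0.68 log2 units (SE 0.08) for each log2 unit of FABP4, with a limma adjusted p of 3.92e-05. Pearson's r was 0.88 and Spearman's rho 0.86, each with a permutation p of 1e-05, the smallest that 100000 resamples can give, or 0.00412 and 0.00800 after adjustment over 14408 probe sets. The r was 0.91 in S and 0.90 in no S animals, and 0.85 without the 2 animals farthest from the FABP4 median. The r was thus alike in both series, while the slope was 0.72 in S and 0.29 in no S animals.

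RBP4 had a slope of 0.66 (SE 0.09, limma adjusted p 2.30e-04), an r of 0.84 (permutation p 1e-05, adjusted 0.00412) and a rho of 0.79 (permutation p 8e-05, adjusted 0.0231). Its r was 0.98 in S animals (permutation p 2e-05) and 0.54 in no S animals (permutation p 0.107). In the no S series it was 0.98 over the 9 animals without low IMF replicate 3. Low IMF replicate 3 alone thus set the lower value, and r over the remaining 19 animals was 0.93.

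PCK1 had a slope of 0.68 (SE 0.13, limma adjusted p 0.00767), an r of 0.75 (permutation p 0.00017, adjusted 0.0219) and a rho of 0.64 (permutation p 0.00348, adjusted 0.109). Its r was 0.94 in S (permutation p 5e-05) and 0.25 in no S animals (permutation p 0.454), or 0.65 in the no S series without low IMF replicate 3. The call on PCK1 was lost with IMF group and title series in the model (slope 0.55, limma adjusted p 0.134) and without high IMF replicate 10 (limma adjusted p 0.0598). Without the 2 animals farthest from the FABP4 median r was 0.63.

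LEP had a slope of 1.30 (SE 0.18, limma adjusted p 3.65e-04), an r of 0.85 and a rho of 0.87, each with a permutation p of 1e-05. The slope was not called in S animals alone (1.37, limma adjusted p 0.166), in no S animals alone (1.04, limma adjusted p 0.574), in low IMF animals alone (0.92, limma adjusted p 0.499) or without the 4 albumin arrays (1.16, limma adjusted p 0.151). Its r was 0.86 in S and 0.73 in no S animals, and 0.83 without the 2 animals farthest from the FABP4 median. The 6 animals with the highest FABP4 all had LEP of at least 24.9. At middling FABP4, high IMF replicates 4, 5, 9, 2 and 3 had FABP4 of 764, 756, 679, 523 and 487 and LEP of 3.61, 10.6, 22.5, 6.12 and 1.44. Low IMF replicates 1, 8 and 10 had more FABP4, 1081, 1030 and 887, and LEP of 1.08, 0.01 and 1.88. The 2 sets overlap in LEP, since high IMF replicate 3 lay below low IMF replicate 10.

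**Figure D4:**
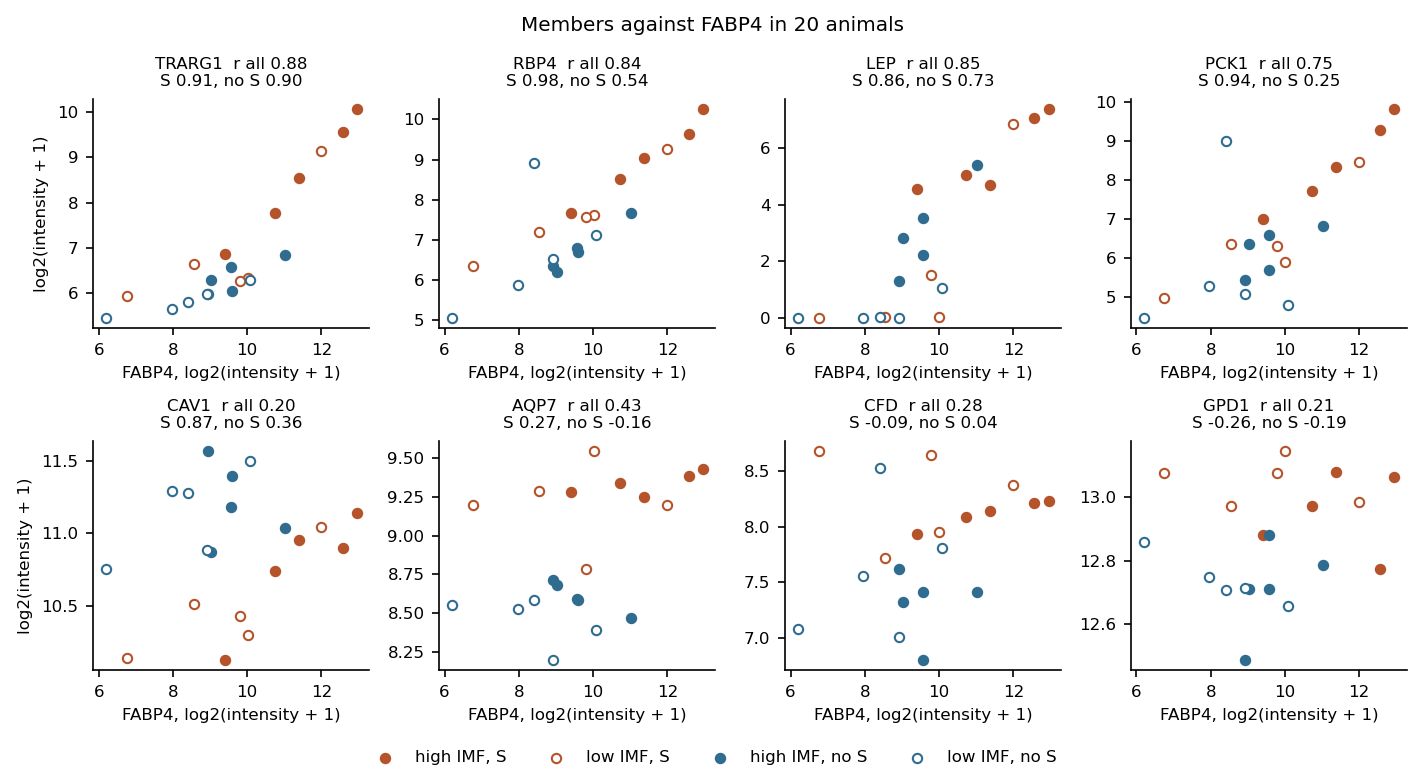
Each panel plots log2(intensity + 1) of 1 member against that of FABP4 in 20 animals, brown for S and blue for no S, filled for high IMF and open for low IMF, with Pearson's r above. TRARG1, RBP4, LEP and PCK1 climb with FABP4 (r 0.88, 0.84, 0.85 and 0.75), and low IMF replicate 3 stands above animals of similar FABP4 for RBP4 and PCK1. AQP7 forms 2 bands by title series, while CFD and GPD1 are higher in S animals on average but overlap.

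The same 4 animals held the top for FABP4, TRARG1 and RBP4 in the same order: high IMF replicate 10, high IMF replicate 6, low IMF replicate 6 and high IMF replicate 8, all S. For LEP the first 3 were the same, and for PCK1 low IMF replicate 3 came in at the third place. Low IMF replicate 6 had an ALB intensity of 245, among the lowest, so 1 of these 4 animals lacked the strong albumin signal of the other 3. Without the 4 albumin arrays r with FABP4 was 0.87 for RBP4, 0.77 for TRARG1, 0.76 for PCK1 and 0.75 for LEP over 16 animals. In that fit RBP4 alone was called by its slope (0.61, limma adjusted p 0.00302), where 0.153% of tested probe sets were.

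CAV1 showed an r with FABP4 within the S series that all animals together did not show. Its r over all 20 animals was 0.20 (permutation p 0.392), with a limma adjusted p of 0.521 for the slope. Among S animals r was 0.87 (permutation p 9.9e-04) with a rho of 0.85, and in no S animals 0.36 (permutation p 0.315), a difference between series that was not tested. The second CAV1 probe set had an r of -0.24 over all animals, 0.82 in S and 0.45 in no S animals.

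Taken within the 4 cells of IMF group and title series, r was 0.67 and 0.68 for the 2 CAV1 probe sets. With IMF group and title series in the model the slope on FABP4 was 0.16 (limma adjusted p 0.0751) for the brightest and 0.17 (limma adjusted p 0.0741) for the second, so neither was called. The mean level of 9 endothelial genes had an r of -0.17 with FABP4 in S animals, and of 0.25 with CAV1 there. In no S animals CAV1 moved with other lists, with an r of 0.86 with 11 fibroblast and matrix genes and 0.72 with endothelial genes. Their part in CAV1 was not tested.

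AQP7 had an r of 0.43 with FABP4 over all animals (permutation p 0.0582, adjusted 0.201), 0.27 in S and -0.16 in no S animals. CFD had 0.28 over all (permutation p 0.232), -0.09 in S and 0.04 in no S animals. GPD1 had 0.21 over all (permutation p 0.362), -0.26 in S and -0.19 in no S animals. Within each series r was between -0.26 and 0.27 for these 3 genes. Within the 10 high IMF animals, which hold both series, it was 0.68 for CFD (permutation p 0.0332), 0.63 for AQP7 (permutation p 0.0587) and 0.60 for GPD1 (permutation p 0.0687), and within low IMF animals 0.29, 0.23 and 0.13. The median r of all tested probe sets was 0.01 over all animals, -0.06 in S and 0.12 in no S animals. Within high IMF animals it was -0.02, with 22.2% of tested probe sets over 0.5. Within low IMF animals it was 0.08, with 15.5% over 0.5. The permutation p values within high IMF animals were not adjusted for the number of probe sets. GPD1 had an r of 0.86 in S and -0.31 in no S animals with the mean level of 11 muscle fibre genes, given as a description. Neither that difference nor the part of muscle fibres in GPD1 was tested.

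**Figure D5:**
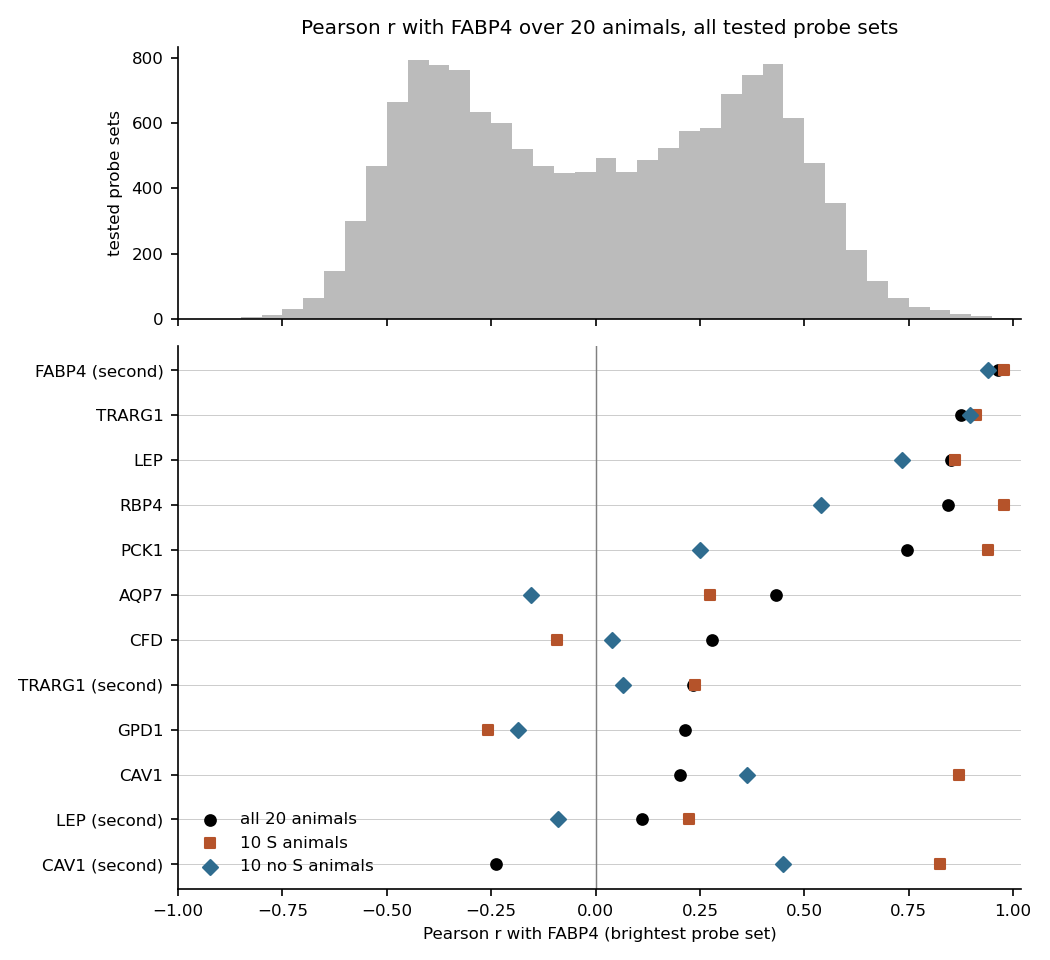
The upper panel counts tested probe sets by their Pearson r with FABP4 over 20 animals, and the lower panel gives r for each other member probe set in all 20 animals (black), S (brown) and no S (blue). The second FABP4 probe set, TRARG1 and LEP have an r of at least 0.73 in all 3 sets, CAV1 and its second probe set have 0.87 and 0.82 in the S animals, and 9.08% of all tested probe sets exceed 0.5 over 20 animals.

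Among all named genes with a tested probe set, those most like FABP4 over the 20 animals were CIDEC (r 0.98), S100G (0.96), CCDC3 (0.93), ACSM1 (0.93), SFRP5 (0.91), TKT (0.91), THRSP (0.90), MTURN (0.90), MCAM (0.88) and DGAT2 (0.87). CIDEC encodes a protein of the lipid droplet in fat cells, and its r was 0.99 in S and 0.97 in no S animals. MTURN had another tested probe set with an r of -0.54, so its place rests on 1 probe set. TRARG1 ranked 16th, RBP4 27th and PCK1 90th of 14408 probe sets by r. The lowest r belonged to MFSD6 (-0.83), STARD5 (-0.81) and GINS3 (-0.80).

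Other genes of fat cells followed FABP4 in part. Of 18 tested genes of this list 5 were called by a positive slope and none by a negative one: CIDEC, THRSP, CIDEA, LIPE and AOC3, where 1.72% of all tested probe sets were called (1.3% positive). With IMF group and title series in the model 4 were called, and AOC3 was not (limma adjusted p 0.217). CIDEC had a slope of 1.05 (SE 0.04, limma adjusted p 7.42e-13) and THRSP, a regulator of lipid synthesis, 1.08 (SE 0.11, limma adjusted p 4.25e-06). CIDEA, a relative of CIDEC, had 0.46, LIPE, the hormone-sensitive lipase, 0.41, and AOC3, a surface amine oxidase, 0.22.

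The median slope of the list was 0.09, where that of all tested probe sets was 0.00081. LPL, the lipase that frees fatty acids from lipoproteins, CD36, a fatty acid transporter, and PNPLA2, the first lipase of triglyceride breakdown, were not called, with slopes of 0.0020, -0.08 and 0.15. Within the series their r with FABP4 was 0.44, 0.78 and -0.09 in S and -0.04, 0.26 and 0.31 in no S animals. With IMF group and title series in the model CD36 had a slope of 0.09 (limma adjusted p 0.360). Between high and low IMF 11 of the 18 were higher, with a median of 0.05, and none was called. THRSP had the largest difference of the list, 2.45 (SE 0.71, unadjusted p 0.00244), followed by CIDEC at 1.94 (SE 0.67, unadjusted p 0.00844), both with a limma adjusted p of 0.99974.

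Of 15 tested partners of the members 2 were called by a positive slope on FABP4, against 1.3% of all tested probe sets. PCK2, the mitochondrial counterpart of PCK1, had a slope of 0.55 (SE 0.07, limma adjusted p 1.42e-04) and CAVIN3, a protein of caveolae, 0.19 (SE 0.05, limma adjusted p 0.0394). CAVIN3 was not called with IMF group and title series in the model (limma adjusted p 0.315). FABP3, the fatty acid carrier of muscle, had a slope of 0.0087, and SLC2A4, the glucose transporter whose vesicles hold TRARG1, 0.06. CAV2, which joins CAV1 in caveolae, had 0.0061. Within the series r with FABP4 for FABP3, SLC2A4 and CAV2 was -0.19, -0.78 and 0.37 in S and -0.47, 0.15 and 0.37 in no S animals. With IMF group and title series in the model they were not called (limma adjusted p 0.639, 0.276 and 0.276). PCK2 also had the largest difference between high and low IMF among the partners, 0.98 (SE 0.43, unadjusted p 0.0308), which did not pass.

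The mean level of the 18 tested other fat cell genes followed FABP4 with an r of 0.90 over all animals, 0.92 in S and 0.90 in no S animals. Single genes of that list ran from an r of 0.98 (CIDEC) to -0.28 (NAMPT) over all animals, and 5 of the 18 were called by their slope. The mean thus does not stand for each gene. Over all animals r was 0.64 for fibroblast and matrix genes (0.70 in S, 0.57 in no S), 0.61 for the partners (0.69 in S, 0.17 in no S) and 0.47 for macrophage genes (0.19 in S, 0.39 in no S). It was 0.29 for liver genes (0.62 in S, -0.21 in no S), 0.11 for endothelial genes (-0.17 in S, -0.07 in no S) and -0.11 for muscle fibre genes (-0.29 in S, -0.57 in no S). Of 11 fibroblast and matrix genes 1, SPARC, was called by its slope on FABP4 (limma adjusted p 0.0446), against 1.72% of all tested probe sets, and it was not with IMF group and title series in the model (limma adjusted p 0.280). The part of these cell types in the relations among the members was not tested.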

How the data were processed

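Per the labels' protocols, 0.5 ug of DNase-treated total RNA per muscle was made into cRNA carrying biotin. The authors' processing used GCOS 1.1.1 and Affymetrix Expression Console 1.1, per the submitters' processing notes. How probes were summarised and normalized is not stated in these sources. The deposited values are linear intensities per probe set, 24128 in all, which limits precision through the number of arrays rather than a read depth. Removing 112 controls left 24016 probe sets. The intensity was taken as log2(value + 1), which understates changes of dim probe sets, and 14409 probe sets outside the 40% with the lowest mean were tested. Values of probe sets under the filter come from a fit without it.

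limma 3.58.1 in R 4.3.3 (lmFit and eBayes, two-sided) tested high against low IMF, S against no S with IMF group in the model, their interaction and the slope on FABP4, with Benjamini-Hochberg adjustment over all tested probe sets at 0.05. Each array is a different animal. Correlations used two-sided permutation tests with 100000 resamples (Python 3.11.15, scipy 1.17.1). On simulated data with 14409 probe sets the IMF fit recovered 62.7%, 92.5% and 98.5% of changes of 0.5, 1 and 2 log2 units. It made 7 false calls there. The slope fit recovered 100% of slopes of 0.5 with 9 false calls. The simulation held no difference between title series, and its noise had the SD within the 4 cells of IMF group and title series. These rates thus do not apply to the fits of the real data that leave title series out.

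The members and the gene lists were chosen with earlier results of these data known. The rule for named genes holds all members, the 10 genes with the highest and the 3 with the lowest r with FABP4 among probe sets with 1 symbol, genes of the list of other fat cell genes, and the 3 genes of each other list with the smallest p for IMF. Of these other lists, PCK2 and CAVIN3 are the genes named under it. Genes called by the slope and partners named for their role stand outside this rule and were chosen after their values were seen. Alternatives changed the added constant, the filter, the normalization, the covariates, the animals and, for IMF, the test. Those without the albumin arrays or the arrays with the lowest median signal were added after the data were seen.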

Additional observations from a re-analysis of the deposited data

Results flagged for a closer look

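The 13 probe sets were each checked in 4 groups of 10 animals (high IMF, low IMF, S and no S) for a single value far from the rest, and 6 were found in 52 checks, where chance marks about 1 group in 20. PCK1 in low IMF replicate 3 stood at a log2 value of 9.01 (intensity 514) among the no S animals, with the next value at 6.83. TRARG1 in low IMF replicate 6 stood at 9.14 (intensity 563) among the low IMF animals, with the next at 6.64. LEP in the same animal stood at 6.85 (intensity 115), with the next low IMF value at 1.53. AQP7 in low IMF replicate 10 was the lowest of the S animals at 8.79 (intensity 441), with the next at 9.20. The second LEP probe set in high IMF replicate 4 was the lowest at 2.92 (intensity 6.57), both among the high IMF animals, where the next was 4.22, and among the no S animals, where the next was 3.97.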

How the results depend on the processing

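No member gene and no probe set was called between high and low IMF under any alternative tried (0 of 14409 also by the methods' t-test unpaired, with 258 at an unadjusted p under 0.05), and 8 of the 9 tested probe sets kept their direction in every one. No paired analysis was possible because the labels pair no animals, although the series text names a paired test. The number of probe sets called by the slope on FABP4, 248 over all animals, moved most: 461 with arrays centred on their medians, 43 in S, 2 in no S, 53 in high IMF and 4 in low IMF animals, 30 without the 2 animals farthest from the FABP4 median, 22 without the 4 albumin arrays, and 76 to 3140 leaving out 1 animal. It was 3140 without low IMF replicate 9, 1271 without high IMF replicate 1, 555 without low IMF replicate 7, 153, 99 and 76 without low IMF replicates 4, 6 and 5, and 80 without high IMF replicate 10. Member genes called by the slope numbered 3 over all animals, 2 to 4 leaving out 1 animal, 0 in no S and 0 in low IMF animals, and 1 without the 4 albumin arrays; the smaller sets also hold fewer animals. AQP7 was called only without low IMF replicate 9.

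Directions turned for these values, none of them called. For IMF they were the second CAV1 probe set (-0.025 without low IMF replicate 9, -0.025 to 0.37 leaving out 1 animal), the second LEP probe set (-0.15 in no S animals) and the second TRARG1 probe set (0.32 in S animals, -0.14 to 0.066 leaving out 1 animal). For S against no S it was the second LEP probe set (0.019 with 16 added, 0.018 after quantile normalization, -0.25 to 0.20 leaving out 1 animal). For the slope on FABP4 the second CAV1 probe set turned to 0.17 with both covariates, 0.17 in S and 0.11 in no S animals. CAV1 turned to -0.012 in high IMF animals and CFD to -0.015 in S animals. GPD1 turned to -0.0069 with both covariates, -0.015 in S and -0.016 in no S animals, and AQP7 to -0.015 with both covariates and -0.018 in no S animals. The second LEP probe set turned to -0.0071 with both covariates, -0.034 in no S, -0.13 in low IMF animals and -0.056 without the albumin arrays. The change of the IMF difference between series, 0.67 for FABP4, 0.14 for its second probe set, 1.57 for PCK1, 1.18 for TRARG1 and 1.39 for RBP4 with all arrays, turned, without the albumin arrays, to -0.69 for FABP4, -1.84 for its second probe set, -0.33 for PCK1, -0.061 for TRARG1, -0.093 for RBP4, -0.15 for CAV1 and -0.21 for CFD. In that fit without the albumin arrays, high IMF replicates 7 and 9 were the only high IMF animals of the S series. The cause was not tested.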
